A study of Bos grunniens with 6 samples.

Results

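In the m6A peak list from cattle-yak testis, 2 gene symbols carried more peaks than any other symbol, *UBE2M* with 45 and *ZNF773* with 26. Every row of the list with one of these symbols was taken, which gave 71 of the 16186 listed peaks on 27 of the 8986 gene identifiers with a peak, 17 listed as *UBE2M* and 10 listed as *ZNF773*. The symbols were chosen for their number of peaks, so that number is a description and was not tested, and the next symbol, *SYNE2*, had 19 peaks. Testis tissue was obtained by castration from 3 cattle-yaks (the hybrid of cattle and yak) aged 5 years, named TES5, TES6 and TES7, and each animal gave 1 IP and 1 input library. The 6 libraries form a single condition without a treatment or a comparison group, and nothing labels the animals as litter mates or as a batch. MeRIP-seq sets RNA fragments pulled down by an antibody against m6A (N6-methyladenosine, a methyl mark on adenosines of mRNA) against the same RNA before the pull-down, and a peak is a stretch that the pull-down enriched.

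UBE2M is the conjugating enzyme that receives the ubiquitin-like protein NEDD8 from its activating enzyme and passes it to cullins, the scaffolds of a large family of ubiquitin ligases. ZNF773 belongs to the KRAB zinc finger proteins, which bind DNA through rows of C2H2 zinc fingers and recruit the corepressor TRIM28 and the histone methyltransferase SETDB1 through their KRAB domain. Genes of the KRAB zinc finger family stand in clusters, their finger array is as a rule encoded by a single last exon, and m6A in mRNA is known to be dense in long exons and around the stop codon.

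The 2 symbols were not spread over the genome. All 27 identifiers lay on chromosome 20 of the yak build LU_Bosgru_v3.0, in 2 blocks that no other listed symbol interrupted. The *ZNF773* block ran from 54325489 to 55123124, a stretch of 0.798 Mb with 10 identifiers and 26 peaks. The *UBE2M* block ran from 55582021 to 57152061, a stretch of 1.57 Mb with 17 identifiers and 45 peaks, and it also held 2 identifiers without a symbol that carried 3 peaks. The blocks were 459 kb apart, and the interval between them held 8 other symbols on 12 identifiers with 24 peaks, namely *C19orf18*, *ZNF606*, *ZNF329*, *ZNF274*, *ZNF584*, *ZNF132*, *ZNF446* and *ZBTB45*. On the outer sides stood *DUXA* with 8 identifiers and *ZNF772* before the *ZNF773* block, and *ZNF614* after the *UBE2M* block. Most of these neighbours carry zinc finger names, and both strands were used in each block, with 8 *UBE2M* identifiers on the plus and 9 on the minus strand and 6 and 4 *ZNF773* identifiers, respectively.

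**Figure D1:**
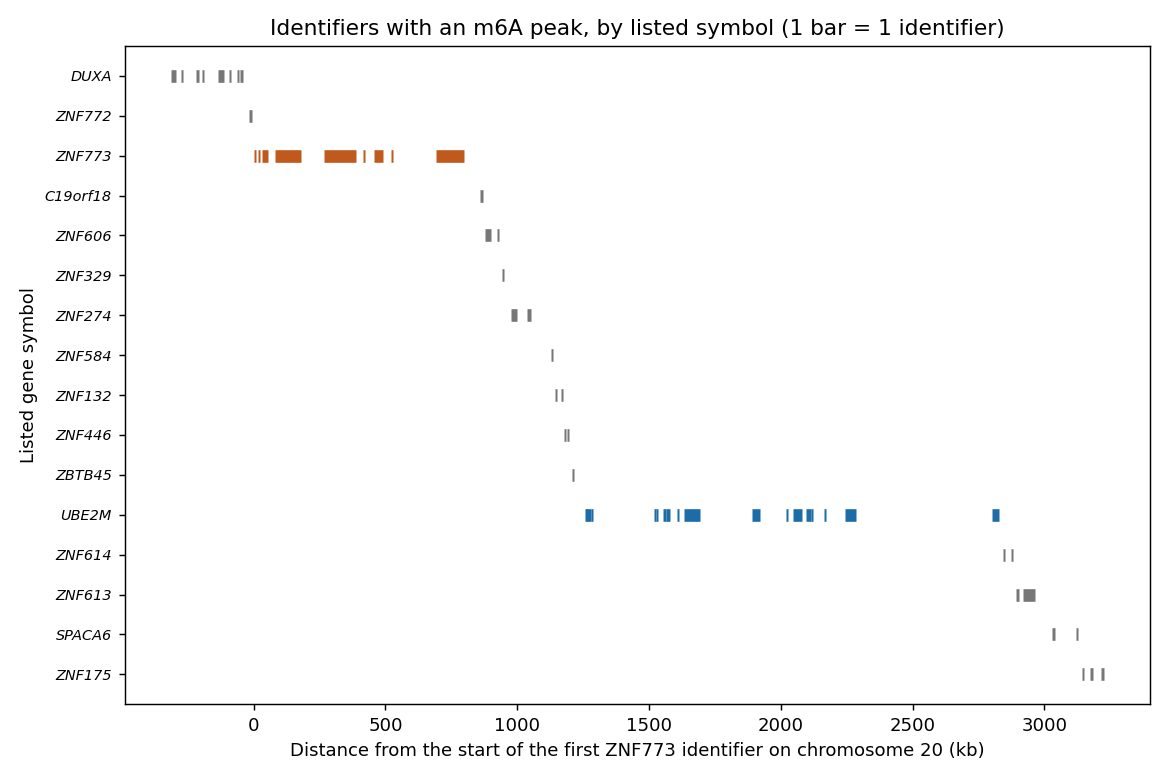
Each bar is 1 gene identifier with an m6A peak, placed by its distance in kb from the start of the first *ZNF773* identifier on chromosome 20 (horizontal axis), and each row is a listed symbol. Short bars are widened to a minimum length so that they can be seen. The 10 *ZNF773* bars (orange) and the 17 *UBE2M* bars (blue) form 2 uninterrupted runs, separated by 459 kb that hold 8 other symbols.

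The runs were not peculiar in kind. Of the 7802 symbols in the list, 768 (9.84%) were carried by several identifiers, and for 767 of these 768 the identifiers followed each other along the chromosomes with no other symbol between them. *HOXC10* was the exception. The 4 symbols found on several chromosomes or scaffolds (*CAMK4*, *NDN*, *SOX11* and *ZNF596*) were each the last symbol of a chromosome and the first of the next one or ones in alphabetical order of the chromosome names. Next in number of identifiers came *TLR7* on chromosome Y (9 identifiers, 14 peaks), *DUXA* on chromosome 20 (8 identifiers, 14 peaks), *GPR143* on chromosome Y (6 identifiers, 15 peaks), *ZNF470* on chromosome 20 (6 identifiers, 14 peaks) and *LRRC38* on chromosome 14 (6 identifiers, 9 peaks), all of them uninterrupted runs as well. How a symbol came to be attached to a run of identifiers was not tested. The totals of 45 and 26 peaks are sums over such runs, and the list does not show that the identifiers of a run are copies of the named gene.

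The functional terms listed for the *UBE2M* identifiers were mostly those of DNA-binding proteins. Gene Ontology terms were listed for 14 of its 17 identifiers. A DNA-binding term was listed for 10 of the 14 (71.4%), and a term for ubiquitin, NEDD8 or SUMO for 0 of the 14, beside 6.52% of all 7944 identifiers with terms. Among the 14 identifiers of other ubiquitin-conjugating enzymes, counting symbols with a single identifier, 7 had such a ubiquitin term and 0 had a DNA-binding term. All 10 *ZNF773* identifiers had terms, and 6 of them (60%) had a DNA-binding term. Over the other symbols of the form ZNF plus a number the share with a DNA-binding term was 75.8% of 223 identifiers, and over all identifiers with terms it was 13.7%. Terms for RNA-directed DNA polymerase, the reverse transcriptase of mobile elements, were listed for 1 *UBE2M* (7.14%) and 2 *ZNF773* identifiers (20%), beside 16.7% of all identifiers with terms, a share that these counts do not stand apart from. ENSBGRG00000016035, listed as *ZNF773*, had terms for mitochondria and succinate. The KEGG pathway of Herpes simplex virus infection, which holds many KRAB zinc finger genes, was listed for 9 of 17 *UBE2M* identifiers (52.9%) and 7 of 10 *ZNF773* identifiers (70%), beside 34.3% of the other ZNF identifiers and 7.37% of all identifiers with a peak.

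The order of genes in another yak assembly bore on the same point. In RefSeq's annotation of Bosgru_T2T1.0, used for names and order only, 1 gene was named *UBE2M* and 0 were named *ZNF773*. That *UBE2M* gene followed *ZBTB45*, *TRIM28* and *CHMP2A*, and 1 protein-coding gene came after it on the chromosome. Between *ZNF772* and *ZNF606*, which enclose the *ZNF773* block in the peak list, the same annotation had 28 protein-coding genes, of which 25 had no symbol of their own. The 27 identifiers are therefore called here by the symbol the list gives them, and which of them, if any, encodes UBE2M or ZNF773 was not determined.

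Both symbols reached their totals through many identifiers, which also carried more peaks each than the average identifier. An identifier listed as *UBE2M* carried 2.65 peaks on average and one listed as *ZNF773* 2.60, with at most 7 on any 1 identifier of either symbol. The averages were 2.11 over the other ZNF identifiers and 1.80 over all identifiers with a peak. A single peak was found on 4 of 17 *UBE2M* identifiers (23.5%) and on 4 of 10 *ZNF773* identifiers (40%), beside 54.0% of all identifiers with a peak. Since the symbols were chosen by their number of peaks, these shares are a description. Across the identifiers of a symbol, peak number and mean expression had a rank correlation of 0.33 over the 17 *UBE2M* identifiers and of -0.51 over the 10 *ZNF773* identifiers, and peak number and transcript span one of 0.32 and 0.57. The identifiers share the 6 libraries and 1 chromosome region, so these values describe the 27 identifiers only.

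Most of the peaks lay in exons outside the UTR classes. For *UBE2M*, 31 of 45 peaks were in the exon class (68.9%, 95% Wilson interval 54.3% to 80.5%), 8 fell in a 3' UTR (17.8%) and 6 in a 5' UTR (13.3%). For *ZNF773*, 22 of 26 were in the exon class (84.6%, 66.5% to 93.9%), 3 fell in a 3' UTR (11.5%) and 1 in a 5' UTR (3.85%). The exon class held 70.3% of all listed peaks and 80.3% of those of the other ZNF identifiers, and both values lie within the intervals of the 2 symbols. These intervals cover counting error only, because the list pools the 3 animals and gives no value per animal.

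Peaks of the UTR classes carry no exon number in the list, so a 3' UTR peak inside a last exon is not counted below. Within the exon class, the peaks of the *UBE2M* identifiers sat almost without exception in the last exon. This held for 29 of 31 peaks (93.5%, interval 79.3% to 98.2%), spread over 15 of the 17 identifiers, beside 18.2% of all exon class peaks in the list. For *ZNF773* it held for 15 of 22 peaks (68.2%, 47.3% to 83.6%), spread over 8 of the 10 identifiers. Of these 15, 8 lay in last exons of other identifiers than the listed one, and among peaks on exons of the listed identifier the last exon held 7 of 12 (58.3%, 31.95% to 80.7%), on 6 identifiers. On the same terms it held 28 of 29 for *UBE2M* (96.6%). For the other ZNF identifiers the share was 43.5% (38.7% to 48.4%). The transcripts concerned had few exons. With the annotated transcript counted once per exon class peak, the median was 4 exons for each symbol, 5 for the other ZNF identifiers and 12 over the whole list. With each exon of a transcript counted as equally likely, 40.1% of the *UBE2M* and 37.8% of the *ZNF773* peaks would be in the last exon, against 26.6% for the other ZNF identifiers and 16.9% for the whole list. Without the single-exon transcripts the last exon still held 25 of 27 *UBE2M* peaks (92.6%, 76.6% to 97.9%) and 12 of 19 *ZNF773* peaks (63.2%, 41.0% to 80.9%). The interval of *UBE2M* lies above that of the other ZNF identifiers, and the interval of *ZNF773* overlaps it. These intervals treat peaks as independent, but many *UBE2M* peaks stand close together on the same identifiers and in the same chromosome region. The intervals may therefore be too narrow, and the difference between the sets was not tested. With exon class peaks merged within 100 bp, the last exon share was 90.9% for *UBE2M* and 63.2% for *ZNF773*.

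**Figure D2:**
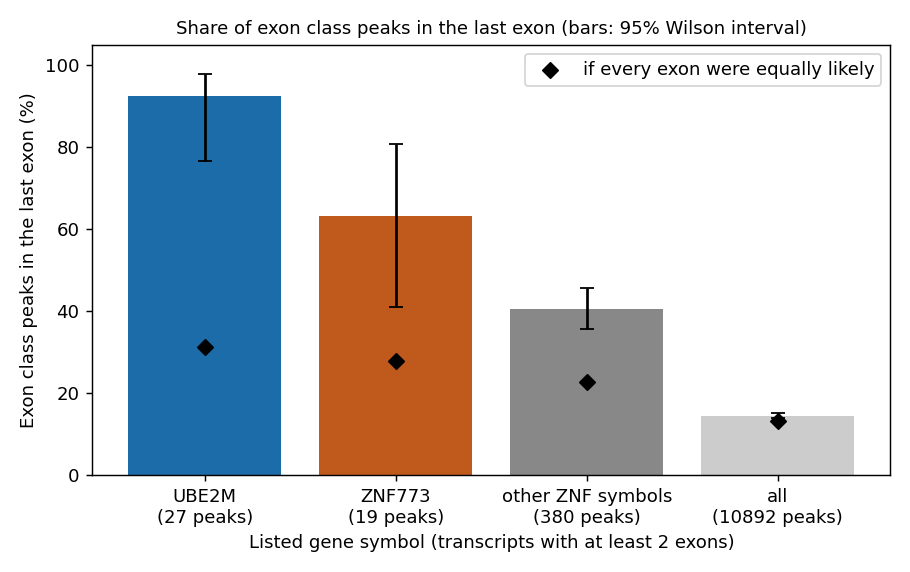
Bars give the share of exon class peaks annotated to the last exon, in percent, for transcripts with at least 2 exons, error bars are 95% Wilson intervals, and diamonds are the share with equal weight for each exon. The share was 92.6% for *UBE2M*, 63.2% for *ZNF773*, 40.5% for the other ZNF symbols and 14.5% for all listed peaks, where it lay next to its diamond at 13.1%.

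The peaks of both symbols were narrow. Their median width was 300 bp for *UBE2M* (quartiles 201 and 762 bp) and 321 bp for *ZNF773* (198 and 1297 bp), beside 597.5 bp for the other ZNF identifiers and 1022 bp for the whole list. Widths are spans on the genome with introns included, so a peak inside 1 exon cannot be wider than that exon. At most 1000 bp was spanned by 38 of 45 *UBE2M* peaks (84.4%) and 18 of 26 *ZNF773* peaks (69.2%), beside 49.8% of all listed peaks. Width and exon position went together. With the exon class limited to peaks of at most 1000 bp, 28 of 28 were in the last exon for *UBE2M*, beside 12 of 15 for *ZNF773* (80%, 54.8% to 93.0%), 59.0% for the other ZNF identifiers and 35.8% over the whole list. With equal weight for each exon, these shares would be 41.25% for *UBE2M* and 30.95% for *ZNF773*. They would be 29.94% for the other ZNF identifiers and 24.04% over the whole list. Among peaks of at most 1000 bp, the whole list thus also lay above its equal-weight share. The *UBE2M* exon class peaks outside the last exon were both wider than 1000 bp.

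**Figure D3:**
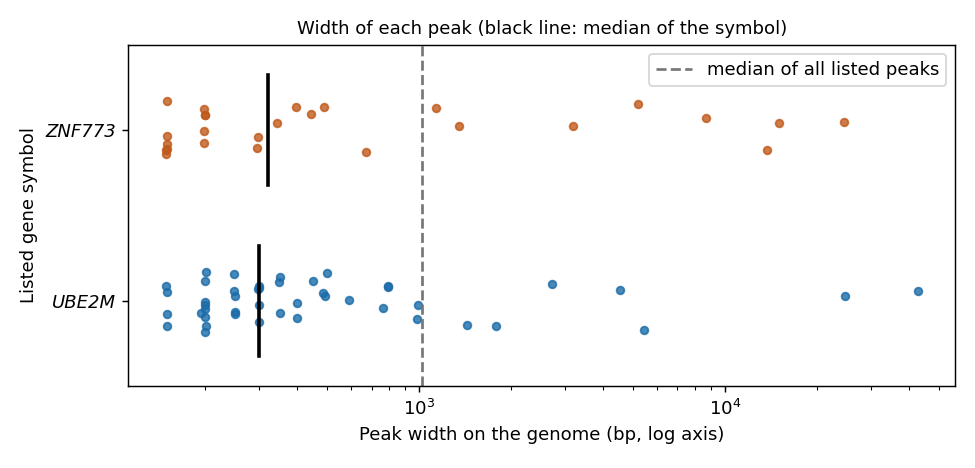
Each point is 1 peak, placed by its width on the genome in bp (horizontal log axis) in the row of its symbol, and points are shifted vertically at random for legibility. The medians, drawn as black lines at 321 bp for *ZNF773* and 300 bp for *UBE2M*, lie left of the dashed median of all listed peaks at 1022 bp, and 7 *UBE2M* and 8 *ZNF773* peaks are wider than 1000 bp.

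Peaks were also placed by position rather than by exon number. Along the genome span of the listed transcript, with 0% at its start and 100% at its end, the midpoints of the narrow *UBE2M* peaks had a median position of 85.3% (quartiles 60% and 93.6%, 38 peaks). The narrow *ZNF773* peaks had a median position of 45.1% (19.5% and 91.1%, 18 peaks), at 35.6% on the plus and 87.8% on the minus strand. Over the whole list the median position was 83.9%, and over the other ZNF identifiers it was 87.1%. A position of at least 80% was held by 57.9% of the narrow *UBE2M* peaks and 38.9% of the narrow *ZNF773* peaks. This share was 58.0% over the other ZNF identifiers and 53.3% over the whole list, so by position the *UBE2M* peaks were close to both. The annotated exon belonged to another identifier than the one listed for 10 of the 22 exon class peaks of *ZNF773* (45.5%), for 2 of 31 of *UBE2M* (6.45%) and for 4.83% over the whole list. The lower median of *ZNF773* rested on 7 narrow peaks of this kind, and without them, a choice made after seeing the data, the median was 87.8% (20.3% and 93.9%, 11 peaks), beside 86.4% for *UBE2M* and 84.7% over the whole list on the same terms.

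Neighbouring peaks of an identifier often stood close together. A gap of at most 100 bp separated 12 of 28 successive pairs on *UBE2M* identifiers (42.9%) and 4 of 16 on *ZNF773* identifiers (25%), beside 21.8% on the other ZNF identifiers and 12.4% over the whole list. With such neighbours merged, 33 intervals remained for *UBE2M* and 22 for *ZNF773*. The median width for *UBE2M* then rose from 300 to 597 bp.

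The identifier with the most peaks under *UBE2M* was ENSBGRG00000015081, minus strand, chromosome 20 from 55957155 to 56020901, with 7 peaks on 2 transcripts. Its last exon, exon 5 of 5, carried 3 peaks of 251, 200 and 201 bp between 55957304 and 55958800, 3 peaks of the 3' UTR class stood between 55981482 and 55983030, and a peak of the 5' UTR class spanned 24792 bp. Its FPKM, the level in the input library scaled by transcript length and library size, was low, at 1.94 in TES5, 1.88 in TES6 and 1.45 in TES7. Its 7 peaks thus stood on one of the less abundant identifiers of the symbol. ENSBGRG00000015081 overlaps another identifier with a peak, ENSBGRG00000015219, so reads and peaks of this pair may not have been told apart.

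ENSBGRG00000014508 was the most abundant *UBE2M* identifier, at an FPKM of 16.8 in TES5, 17.5 in TES6 and 15.4 in TES7 (16.6 ± 1.04, SD, n = 3). In none of the 3 animals did any other *UBE2M* identifier reach its lowest value. A DNA-binding term, and no term for ubiquitin, NEDD8 or SUMO, was listed for ENSBGRG00000014508. It is the first identifier of the block, lies on the minus strand from 55582021 to 55590864 and carried 4 peaks of 200 to 350 bp, namely 1 in a 3' UTR, 1 in exon 5 of 5 and 2 in a 5' UTR. It overlaps ENSBGRG00000014568 on the plus strand, which had an FPKM of 3.49, 3.44 and 4.03 in TES5, TES6 and TES7 and 3 peaks, 2 in exon 2 of 2 and 1 in the 3' UTR class. The library kit keeps the strand, but the strand setting of the counting is not given in the sources used here, so reads of such overlapping identifiers may not have been told apart.

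ENSBGRG00000014634, at 4.43, 4.53 and 4.32 in TES5, TES6 and TES7, had a coefficient of variation of 2.42%, the smallest of the *UBE2M* identifiers that reached an FPKM of 1 in all 3 animals. It carried a peak in exon 4 of 4 and a peak in the 3' UTR class. ENSBGRG00000014885 had the largest at 38.6%, with an FPKM of 6.40 in TES5, 5.89 in TES6 and 11.4 in TES7, with TES7 above the other animals. Among its 3 peaks, 1 of 1433 bp did not overlap its listed transcript and was annotated to exon 4 of 6 of a transcript without a gene identifier.

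ENSBGRG00000015930 had a single peak of 42803 bp, the widest of both symbols. This peak was annotated to exon 2 of 5 but covered most of the identifier's span of 44269 bp, introns included. The FPKM of this identifier was 5.27, 8.002 and 6.60 in TES5, TES6 and TES7. ENSBGRG00000015660 had an FPKM of 4.06, 4.19 and 3.74 in the same order. Of its 3 peaks, 2 were in the 5' UTR class, with widths of 2714 and 5437 bp, and 1 was in exon 2 of 2.

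The other 10 *UBE2M* identifiers had mean FPKM values from 0.0242 to 2.77 and 1 to 3 peaks each. Peaks on 9 of the 17 identifiers were all in the last exon, and a few of these, chosen here after their values were seen, show how the peaks were arranged. ENSBGRG00000015020 had 3 peaks of 300, 499 and 150 bp in exon 5 of 5, between 55891213 and 55892358. ENSBGRG00000015904 had 3 peaks in exon 2 of 2. ENSBGRG00000015745 had 3 peaks in its only exon. ENSBGRG00000015848 also had 3 peaks, in exon 4 of 4, of which 2 overlapped. At the end of that exon, ENSBGRG00000015874 on the opposite strand had its only peak, annotated to the exon of ENSBGRG00000015848, and its FPKM was 0.0726 in TES5 and listed at 0 in TES6 and TES7. ENSBGRG00000015848 itself had a mean FPKM of 2.50.

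**Figure D4:**
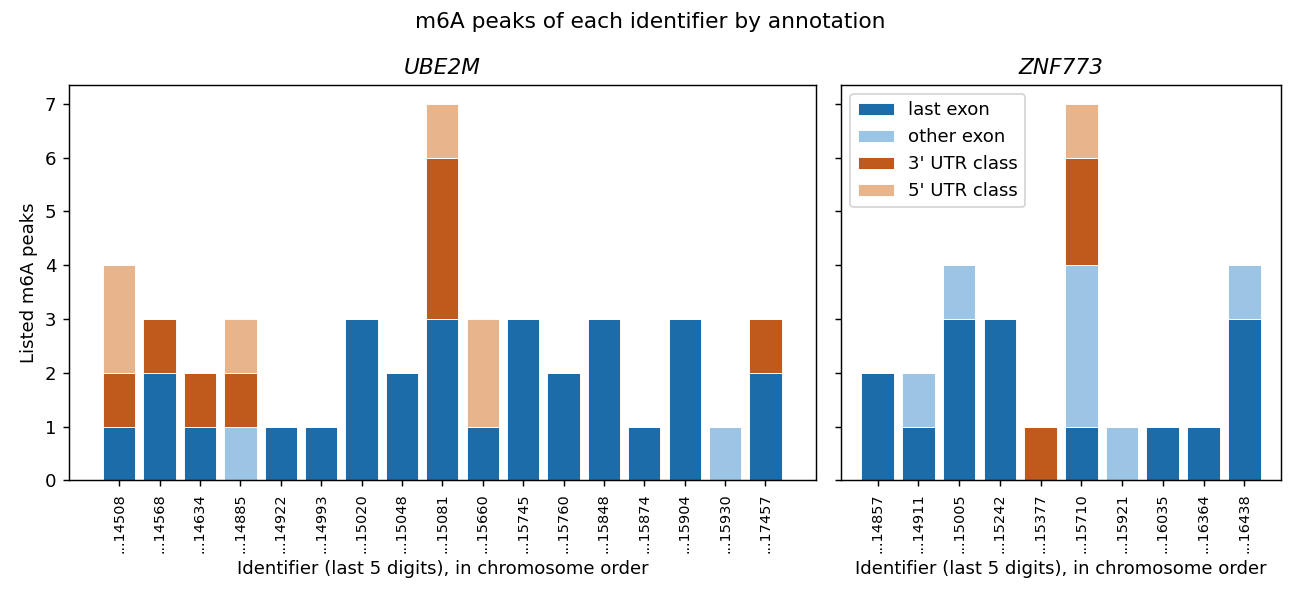
Stacked bars give the number of listed m6A peaks of each identifier (horizontal axis, last 5 digits of the identifier, in chromosome order) by annotation class. Last exon peaks, in dark blue, were found on 15 of 17 *UBE2M* and 8 of 10 *ZNF773* identifiers, and the highest bars in each panel reach 7 peaks.

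Under *ZNF773*, the identifier with the most peaks was ENSBGRG00000015710, on the minus strand from 54594415 to 54714047, with 7 peaks on 2 transcripts. The peaks ranged from 150 to 15085 bp and fell in all 3 classes, 4 in the exon class, 2 in a 3' UTR and 1 in a 5' UTR. Of the exon class peaks, 1 was annotated to exon 2 of 3 of another identifier, ENSBGRG00000015870. With a span of 119633 bp, ENSBGRG00000015710 was the longest identifier of both symbols. Its FPKM was 4.27, 4.49 and 4.04 in TES5, TES6 and TES7, and that of ENSBGRG00000015870 had a mean of 7.73.

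The most abundant *ZNF773* identifier was ENSBGRG00000016364, on the minus strand from 54846988 to 54848274, with an FPKM of 27.0 in TES5, 27.9 in TES6 and 24.3 in TES7 (26.4 ± 1.87, SD, n = 3). It was also the shortest of the symbol, with 1 exon and 1 peak of 1139 bp that covered most of its span of 1287 bp. ENSBGRG00000015377 came next with 14.7, 13.0 and 12.5 in TES5, TES6 and TES7 and 1 peak of 1349 bp in the 3' UTR class. Its span overlaps that of ENSBGRG00000015242 on the same strand. ENSBGRG00000014857 followed with 9.98, 8.97 and 7.86 and had 2 peaks of 443 and 491 bp in exon 4 of 4. The ranges of these 3 identifiers over the animals did not overlap with each other or with those of the other 7, and the most abundant ones carried few peaks.

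ENSBGRG00000015005 and ENSBGRG00000016438 had 4 peaks each at low levels, with an FPKM of 1.74, 1.76 and 1.61 in TES5, TES6 and TES7 for the former. The latter had 1.43, 1.12 and 1.28, and all 4 of its peaks were annotated to exons of other identifiers, 2 of ENSBGRG00000016551, 1 of ENSBGRG00000016613 and 1 of ENSBGRG00000016690. The peaks lie within the genome span of the listed identifier, and the identifiers of the exons had mean FPKM values of 1.52, 7.53 and 0.0180. The 3 peaks of ENSBGRG00000015242 were likewise in exon 3 of 3 of another identifier, ENSBGRG00000015264. The listed identifier had an FPKM of 0.628 in TES5 and 0.402 in TES6 and was listed at 0 in TES7. The identifier of the exon had 5.69, 5.24 and 5.62, so these peaks stood on exons of the more abundant of the pair. The reverse held for 2 of the 4 peaks of ENSBGRG00000015005. They were annotated to exons of ENSBGRG00000015097 and ENSBGRG00000015209, with mean FPKM values of 0.965 and 0. Leaving out exon class peaks annotated to exons of identifiers outside these lists, 16 of 26 peaks were counted for *ZNF773* and 44 of 45 for *UBE2M*. The symbols of the identifiers left out are not known here, since they carry no peak of their own.

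ENSBGRG00000015921 had an FPKM of 5.31, 3.79 and 5.07 in TES5, TES6 and TES7. It carried 1 peak of 5200 bp, annotated to exon 3 of 4, within a span of 7162 bp. The remaining ENSBGRG00000014911 and ENSBGRG00000016035 had mean FPKM values of 1.45 and 1.67, with 2 peaks and 1 peak. Zinc finger genes of a cluster can be near-identical in sequence, and unique reads alone were kept, so the level of a close copy may be understated.

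As groups, the identifiers of both symbols were expressed at low to moderate levels. An FPKM of at least 1 in all 3 input libraries was found for 14 of 17 *UBE2M* identifiers (82.4%) and 9 of 10 *ZNF773* identifiers (90%), beside 86.9% of all identifiers with a peak and 87.3% of the other ZNF identifiers. Both counts are near that background. The median of the mean FPKM was 2.50 for *UBE2M* and 2.99 for *ZNF773*, beside 4.89 for the other ZNF identifiers and 7.36 for all identifiers with a peak, and it was 4.81 for the 12 identifiers between the blocks. The median over the *UBE2M* identifiers was 2.41, 2.36 and 2.44 in TES5, TES6 and TES7, and over the *ZNF773* identifiers 3.00, 2.96 and 2.91. On the log2(FPKM + 1) scale, the median was 1.80 for *UBE2M* and 1.92 for *ZNF773*, beside 3.05 for all identifiers with a peak. In bulk tissue, fewer cells of a type and less RNA per cell cannot be told apart.

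Within each symbol the levels formed a graded order. Mean FPKM ran from 0.0242 to 16.6 over the *UBE2M* identifiers and from 0.343 to 26.4 over the *ZNF773* identifiers. Of the 16 neighbouring pairs in the *UBE2M* order, 10 had overlapping ranges over the 3 animals and 6 did not, and in the middle of the order, from ENSBGRG00000015020 down to ENSBGRG00000014993, every neighbour overlapped the next. Of the 9 pairs in the *ZNF773* order, 4 overlapped and 5 did not. The animals varied little, with a median coefficient of variation of 13.1% for *UBE2M* and 11.8% for *ZNF773* among identifiers that reached an FPKM of 1 in all 3 animals, beside 11.6% for all such identifiers. The highest of the 3 values came from TES5 for 5, from TES6 for 8 and from TES7 for 4 of the *UBE2M* identifiers, and from TES5, TES6 and TES7 for 5, 4 and 1 of the *ZNF773* identifiers.

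**Figure D5:**
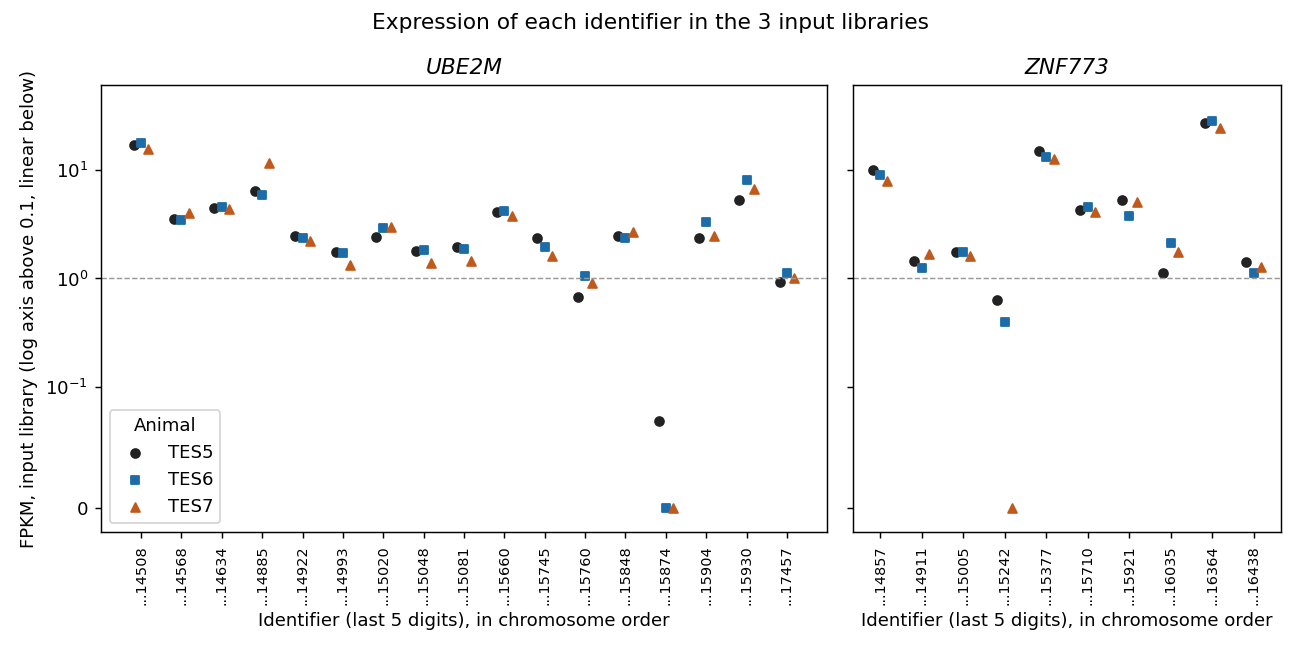
Points give the FPKM of each identifier in the 3 input libraries, 1 per animal (vertical axis, log scale above 0.1 and linear below), with identifiers in chromosome order by their last 5 digits and a dashed line at an FPKM of 1. ENSBGRG00000014508 in the *UBE2M* panel and ENSBGRG00000016364 in the *ZNF773* panel stand above the rest of their panels in all 3 animals, and ENSBGRG00000015874 and ENSBGRG00000015242 reach 0.

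Genes for the partners of UBE2M in NEDD8 conjugation were looked up in the same list. Of 32 genes of that pathway, 16 (50%) had a peak under their symbol, near the 41.9% of all genes with an FPKM value that carried a peak. They had 29 peaks on 17 identifiers, with a median width of 1938 bp. The activating enzyme subunits *NAE1* and *UBA3* had 1 peak each and mean FPKM values of 21.2 ± 2.18 and 28.5 ± 2.56 (SD, n = 3). Of the cullins that receive NEDD8, *CUL3* had 3 peaks at an FPKM of 42.7 ± 6.16. Under the symbol *CUL4A*, 2 peaks were on one identifier, at 71.3 ± 4.31, and 1 on another, at 0.582 ± 0.141. Which of these identifiers encodes CUL4A was not determined, and both are counted here. The cullin exchange factor *CAND1* had 3 peaks at 43.0 ± 2.40, and *SENP8*, the protease that removes NEDD8, had 2 at 5.37 ± 1.06. The median of the mean FPKM over the 17 identifiers was 21.7, and 2 of their 22 exon class peaks were in the last exon, beside 18.2% over the whole list and 29 of 31 for the identifiers listed as *UBE2M*. The lists were not matched for exon number or peak width, and the identifiers listed as *UBE2M* are not shown to encode it. These counts therefore do not compare UBE2M with its partners.

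Of 16 genes for the corepressor machinery of KRAB zinc finger proteins, 10 (62.5%) had a peak, beside the same 41.9%, with 23 peaks on 11 identifiers, a median width of 2248 bp and a median of the mean FPKM of 23.3. The histone methyltransferase *SETDB1* had 2 peaks at an FPKM of 23.3 ± 1.70 and its cofactor *ATF7IP* 4 peaks at 11.98 ± 1.77 (SD, n = 3). Under the symbol *CBX5*, the gene of a heterochromatin protein, 2 identifiers had 1 peak each, at 27.3 ± 3.97 and 118 ± 7.35. Which of these identifiers encodes CBX5 was not determined, and both are counted here. The remodeller *CHD3* had 4 peaks at 36.1 ± 3.00, and the deacetylase *HDAC1* 1 peak at 48.6 ± 3.35. No peak was listed under *TRIM28*. In this list, 1 of 20 exon class peaks was in the last exon, beside 18.2% over the whole list and 15 of 22 for the identifiers listed as *ZNF773*. Exon number and peak width were not matched here either, and the identifiers listed as *ZNF773* are not shown to encode it.

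Symbols are known here for identifiers with a peak only, which also limits the check of the tissue. Of 23 testis markers, 10 had a peak, beside 41.9% of all genes, and 9 of these 10 reached an FPKM of 1 in all 3 animals, beside 86.9% of all identifiers with a peak. They included *SOX9* and *WT1* of Sertoli cells, *STAR* of Leydig cells, *ACTA2* and *MYH11* of peritubular myoid cells, *KIT* and *ZBTB16* of spermatogonia, and *SYCP1* and *SYCP3* of spermatocytes. *GFRA1*, another marker of spermatogonia, had a mean of 0.790. A peak was listed for 2 of 6 Sertoli cell, 1 of 4 Leydig cell and 3 of 6 spermatogonial markers. It was listed for 2 of 2 myoid, 2 of 2 spermatocyte and 0 of 3 spermatid markers. The level of the markers without a peak could not be read. The part of any cell type in the levels of the *UBE2M* and *ZNF773* identifiers was not tested.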

How the data were processed

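Peaks had been called by the authors with MeTDiff from IP against input and annotated with ChIPseeker on LU_Bosgru_v3.0, after trimming with Trimmomatic, removal of ribosomal RNA with SortMeRNA and alignment with HISAT2 (version 2.0.4 per the submitters' processing notes). The peak list holds 1 set for the group, without scores. Expression had been deposited by the authors as FPKM of 20953 genes, 1 column for each of the 3 input libraries, and the program behind it is not given in the sources used here. Sums of FPKM per library ran from 280940 to 302365. FPKM values keep no read numbers, so the depth behind a level is unknown and levels have neither an interval nor a floor.

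From the list, peaks, classes, exon numbers, genome spans and functional terms were counted per identifier. Wilson 95% intervals cover counting error only and treat peaks as independent. Means and SDs over the 3 animals, which may reflect technical as well as animal spread, were computed from the FPKM values. No test was run, since 1 condition allows no comparison. Exon numbers were checked to follow the strand: narrow peaks annotated to a last exon had a median position along the transcript of 98.7% on the plus and 98.2% on the minus strand, against 1.87% and 1.66% for first exons. Tools were Python 3.11.15 with pandas 2.3.3, numpy 2.4.6, matplotlib 3.10.9 and SciPy 1.17.1, and the counting steps were tested on simulated data. Of the 7802 listed symbols, 7434 were found in RefSeq's table of Bosgru_T2T1.0.

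Per-animal values are given for the 5 identifiers with the most peaks and the 5 with the highest mean FPKM of each symbol. Named as alike are the 5 symbols with the most identifiers thereafter. The members, the gene lists and the rules were chosen with earlier results of these data known. Sequences were not analysed here, and 1 marker gene is not reported here.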

Additional observations from a re-analysis of the deposited data

How the results depend on the processing

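Of 52 alternative values for the counts, shares and medians of the 2 symbols, 40 stayed within their limit. The limit was 1.5-fold for counts and positions, and the interval or the spread between animals otherwise. With peaks merged within 100 bp, the median width for *UBE2M* was 597 bp. With exon class peaks counted for the identifier of the annotated exon, *ZNF773* had 16 peaks, since 10 of its peaks are on exons of identifiers whose symbols are not known here. In peaks of at most 1000 bp, an alternative chosen after seeing the data, the last exon share of *UBE2M* was 100%. Without narrow peaks on exons of other identifiers, also added after seeing the data, the median position of *ZNF773* was 87.8%. The median of log2 FPKM was 1.37 for *UBE2M* and 1.49 for *ZNF773* with a pseudocount of 0.1, and 1.84 and 2.40 over the identifiers above 0 in every input library, which leaves out 1 identifier of each symbol. Leaving out each animal in turn gave medians from 1.76 to 1.81 and from 1.89 to 1.98, and 14 to 15 *UBE2M* and 9 *ZNF773* identifiers with an FPKM of at least 1. For the 15 identifiers with per-animal values, 75 of 75 alternative means moved by less than the SD, which leaving out 1 of 3 animals cannot exceed. No paired analysis was possible because peaks are listed once for all 3 animals and FPKM exists for input libraries alone. The cause of these shifts was not tested except where stated. One condition, 3 animals, a pooled peak list without scores, and symbols that are known only for identifiers with a peak limit all of these values.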
